A study of Rattus norvegicus with 6 samples.

Results

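A set of 10 genes of the renal salt-handling system was examined in kidneys of salt-fed Dahl S and Lewis rats. They are the epithelial sodium channel subunits Scnn1a, Scnn1b and Scnn1g, the cotransporters Slc12a1 and Slc12a3, the kinases Wnk1, Wnk4, Stk39 and Oxsr1, and the ubiquitin ligase Nedd4l. Members were the probe sets whose platform annotation gave 1 of these symbols and no other, which selected 16 of the 31099 probe sets and 9 of the 10 genes. Wnk4 had 2 probe sets, each shared with other symbols, and is not reported here.

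Both groups were male rats, 3 of the Dahl salt sensitive strain (Dahl S), in which dietary salt raises blood pressure, and 3 of the Lewis strain. Every rat, the Lewis animals included, ate chow with 8% NaCl for 8 weeks from the age of 5 weeks. Whole-kidney total RNA of each rat was labelled with biotin and hybridised to its own array, so each value averages all nephron segments and the other cells of the organ. A lower value can come from fewer cells of a type or from less RNA per cell, and these cannot be told apart in whole-kidney RNA. Rats on ordinary chow were not analysed here, so strain differences present without the salt diet and those that arose on it cannot be told apart.

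In the kidney most filtered sodium is recovered before the distal nephron, and the distal segments set the final amount excreted. Slc12a1 encodes NKCC2, the furosemide-sensitive sodium-potassium-chloride cotransporter of the thick ascending limb, and Slc12a3 encodes NCC, the thiazide-sensitive sodium-chloride cotransporter of the distal convoluted tubule. The epithelial sodium channel ENaC, built of alpha, beta and gamma subunits from Scnn1a, Scnn1b and Scnn1g, carries sodium into principal cells of the connecting tubule and collecting duct. WNK kinases activate the kinases SPAK (Stk39) and OSR1 (Oxsr1), which phosphorylate and activate both cotransporters. NEDD4-2 (Nedd4l) marks ENaC for removal from the membrane, and the aldosterone-induced kinase SGK1 inhibits it. Much of this control acts on proteins, by phosphorylation, ubiquitination and cleavage, which RNA arrays do not measure.

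Aldosterone and glucocorticoids act on several of these genes through receptors whose DNA site is built of the half-site TGTTCT. Sequences before start sites are shown for some members, none of them called below, and for 1 gene chosen because its window holds the half-site. On the opposite strand the same half-site reads AGAACA, and both strands were searched. The windows are the 250 bases before the RefSeq start in the GRCr8 assembly, written in the direction of the gene, with the half-site in capitals. The adjacent subunit genes Scnn1b (chr1:185861126-185861375, plus strand) and Scnn1g (chr1:185735975-185736224, plus strand), with 0 RefSeq genes between them, are given with Slc12a3 (chr19:10675051-10675300, minus strand), whose values differed most between rats of 1 strain. The second start of the potassium channel gene Kcnj1 (chr8:39061391-39061640, plus strand) is given as a window that holds the half-site, with its first base at 201 and 23 bases before the start.
Scnn1b: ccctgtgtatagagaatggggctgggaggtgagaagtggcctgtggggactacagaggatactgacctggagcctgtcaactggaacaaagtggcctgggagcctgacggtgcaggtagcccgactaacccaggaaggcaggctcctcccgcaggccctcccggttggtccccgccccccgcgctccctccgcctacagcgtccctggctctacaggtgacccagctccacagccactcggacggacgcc
Scnn1g: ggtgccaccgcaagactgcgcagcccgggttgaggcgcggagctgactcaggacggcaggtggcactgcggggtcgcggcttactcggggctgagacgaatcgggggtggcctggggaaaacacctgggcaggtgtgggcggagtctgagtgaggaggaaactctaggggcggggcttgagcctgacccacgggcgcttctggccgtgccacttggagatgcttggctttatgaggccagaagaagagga
Slc12a3: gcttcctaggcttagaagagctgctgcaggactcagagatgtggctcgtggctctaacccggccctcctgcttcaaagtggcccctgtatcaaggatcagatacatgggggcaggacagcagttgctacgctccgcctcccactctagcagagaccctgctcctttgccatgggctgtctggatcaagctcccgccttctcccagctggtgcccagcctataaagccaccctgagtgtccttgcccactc
Kcnj1: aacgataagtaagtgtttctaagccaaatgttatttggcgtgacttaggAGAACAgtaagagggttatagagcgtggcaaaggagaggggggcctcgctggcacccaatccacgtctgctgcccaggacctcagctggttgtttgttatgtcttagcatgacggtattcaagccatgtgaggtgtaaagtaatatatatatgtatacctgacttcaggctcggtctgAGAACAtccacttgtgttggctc
Windows were found for 9 members, Wnk4 among them and Scnn1a not, and of their 10 windows 0 held the half-site, against 17.5% of the 33469 windows of the same length. Of the 11 windows of 6 list genes called below, 2 held it, both of Kcnj1, the other with its first base at 27 before the start. No window of Sgk1, Tsc22d3, Per1, Usp2 or Nedd4 held it, and the called genes Sgk2, Prss8 and Furin had no window. The marked half-sites are matches of letters only, in a short window.

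Each array reports a linear signal intensity per probe set. Arrays differed in overall brightness, with a 2% trimmed mean signal of 118 to 249, so log2(signal + 16) was quantile-normalised, and differences are relative to the typical probe set. A probe set was tested if it exceeded the median of all normalised values, 6.28, on at least 3 of 6 arrays. All 9 members with a probe set had at least 1 tested, 13 of 16 probe sets in all, and the 3 others belong to Wnk1. Differences are Dahl S minus Lewis on the log2(signal + 16) scale with the standard error (SE) of limma's moderated fit, n = 3 rats per strain, and p-values are adjusted by Benjamini-Hochberg over all 15797 probe sets tested with a threshold of 0.05. The kidney-specific genes Umod and Slc12a1 were above the filter level on 6 of 6 arrays. With 3 arrays a strain, precision is limited by their number.

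Of the 13 probe sets 1, for the ENaC alpha subunit Scnn1a, was lower in Dahl S, 0 were higher and 12 were not called. Across the array 7.75% of probe sets were lower and 8.5% higher in Dahl S, and the members' share is near these figures. At an unadjusted p under 0.05 there were 3 member probe sets. The strain ranges did not overlap for 3 of the 13, against 34.4% of all probe sets. The median difference of the members was -0.13 and that of all probe sets 0.00, while the median size regardless of sign was 0.15 in both.

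The number of calls over all probe sets depended on single arrays and on whether arrays were normalised. Of all probe sets 1343 were higher and 1224 lower. Without Dahl S rat 1, 2 or 3 the counts were 802 and 774, 837 and 805, and 763 and 725. Without Lewis rat 1, 2 or 3 they were 1449 and 1337, 1097 and 959, and 1444 and 1338. With arrays scaled to a common trimmed mean they were 1414 and 1206, and to a common median 1204 and 1197. Without normalisation the median difference of all probe sets tested was 0.41, a shift toward Dahl S, and 93.4% of calls were higher against 52.3% with it. On the scale without normalisation the differences of Scnn1b, both Stk39 probe sets, Scnn1g on 1387986_at, Slc12a3 and Nedd4l were above 0. Relative to the 0.41 shift, the 2 Scnn1a probe sets lay at -0.53 and -0.49, Slc12a3 at -0.38 and Nedd4l at 0.01.

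**Figure D1:**
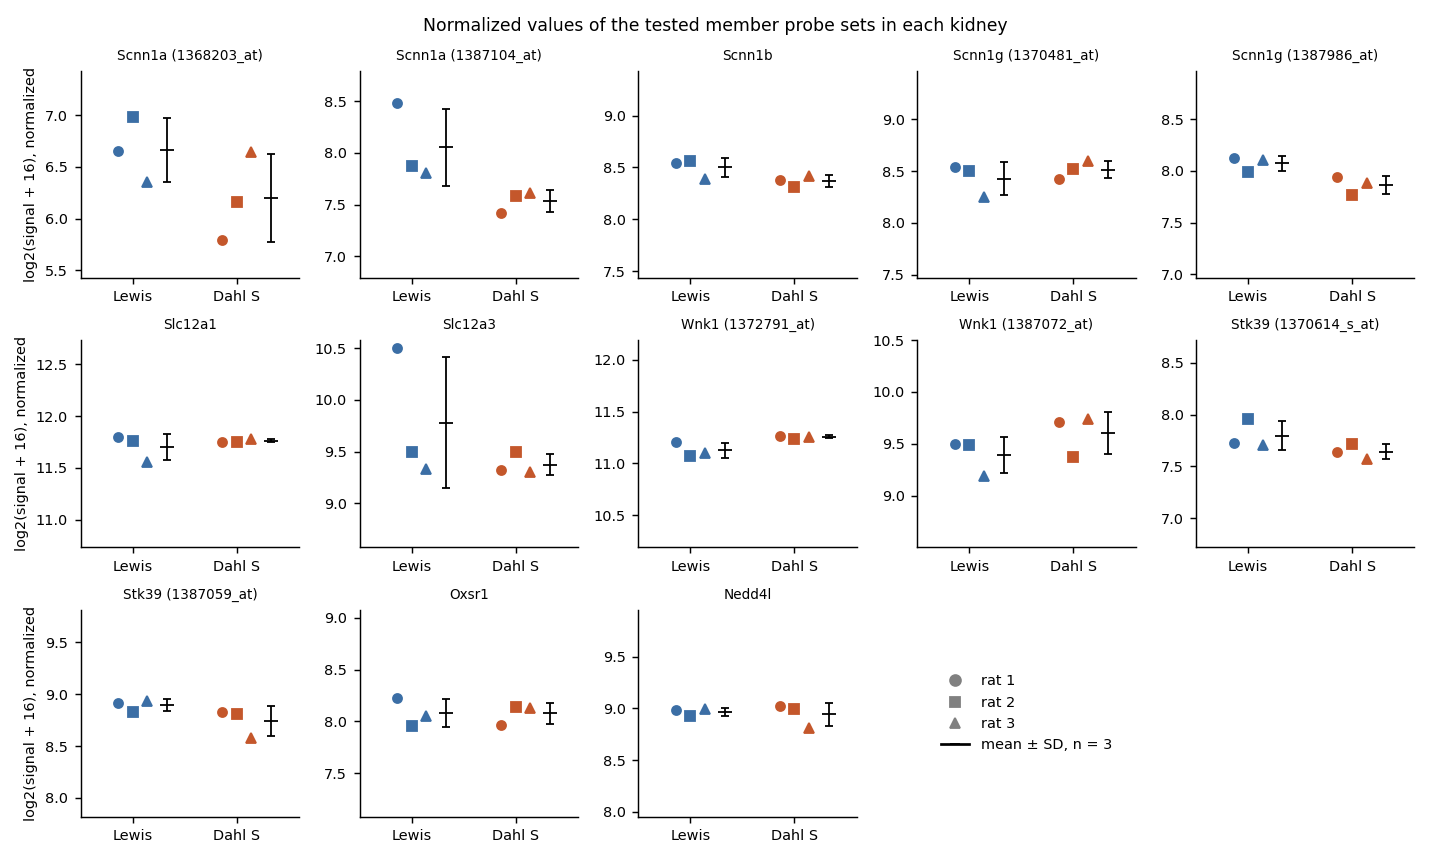
Normalised log2(signal + 16) of the 13 tested member probe sets in each of the 6 kidneys (Lewis blue, Dahl S orange, 1 symbol per rat), with the mean and SD of 3 rats; every panel spans 2 log2 units. Slc12a3 and Scnn1a spread most, with Lewis rat 1 highest for Slc12a3 (10.50) and for Scnn1a on 1387104_at (8.48), while the 6 values of Slc12a1, Scnn1b, Wnk1 on 1372791_at, Oxsr1 and Nedd4l lie closest together.

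Among the ENaC subunits 1 probe set of Scnn1a was called, and the subunits were not tested against each other. Scnn1a, the alpha subunit that the channel needs to form, gave normalised values of 8.48, 7.87 and 7.80 in Lewis rats 1, 2 and 3 and of 7.42, 7.58 and 7.61 in Dahl S rats 1, 2 and 3 (probe set 1387104_at). The 3 Dahl S values lay below the 3 Lewis values, and Lewis rat 1 stood above the other Lewis rats. The difference was -0.52 (SE 0.16, limma adjusted p = 0.042), or 0.698-fold, with a 95% interval of 0.551 to 0.885.

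The Scnn1a call was lost in most fits with 1 array left out, and its difference moved most without Lewis rat 1. Without any 1 Dahl S rat the calls over all probe sets fell too, as given above. The difference was -0.30 without Lewis rat 1 (limma adjusted p = 0.064), -0.46 without Dahl S rat 1 (0.149), -0.54 without Dahl S rat 2 (0.093) and -0.56 without Dahl S rat 3 (0.082), and it was called only without Lewis rat 2 or Lewis rat 3. With arrays scaled to a common trimmed mean it was -0.48 (limma adjusted p = 0.057).

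The other Scnn1a probe set, 1368203_at, was dimmer, with values close to the filter level. Lewis rats gave 6.65, 6.98 and 6.36 and Dahl S rats 5.79, 6.16 and 6.64. Lewis rat 2, not Lewis rat 1, was highest here, and the strains overlapped through Dahl S rat 3. The difference was -0.47 (SE 0.21, limma adjusted p = 0.166).

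Scnn1b, the beta subunit, gave 8.54, 8.57 and 8.39 in Lewis and 8.38, 8.31 and 8.42 in Dahl S. Dahl S rat 3 lay above the lowest Lewis rat, so the strains overlapped. The difference was -0.13 (SE 0.09, limma adjusted p = 0.372), with a 95% interval of -0.32 to 0.07.

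Scnn1g, the gamma subunit, had 2 probe sets that pointed in different directions. On 1370481_at Lewis rats gave 8.54, 8.50 and 8.24 and Dahl S rats 8.43, 8.52 and 8.59, an overlapping pair of groups with a difference of 0.09 (SE 0.10, limma adjusted p = 0.616). On 1387986_at Lewis rats gave 8.13, 7.99 and 8.11 and Dahl S rats 7.94, 7.77 and 7.88. The Dahl S values were all below the Lewis values on this probe set, by 0.21 on average (SE 0.10, limma adjusted p = 0.159). The difference between the 2 probe sets' strain differences was -0.30, with an exact two-sided permutation p = 0.2, where 0.1 is the smallest p that 3 rats against 3 allow.

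The same comparison of probe sets was made in 4 genes. The probe sets of Scnn1a differed by -0.05 in their strain difference, those of Stk39 by 0.00 and those of Wnk1 by 0.08 (exact permutation p = 0.9, 0.9 and 0.5). Adjusted over the 4 genes, the p for Scnn1g was 0.8 and the others 0.9 (exact permutation tests, Benjamini-Hochberg). As no p under 0.1 is possible here, these tests could not pass 0.05 and do not show that the probe sets of a gene agree.

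The cotransporters differed from each other in how much the rats varied. Slc12a1, which encodes NKCC2, gave 11.80, 11.76 and 11.56 in Lewis and 11.76, 11.76 and 11.78 in Dahl S. The 3 Dahl S rats were almost equal and inside the Lewis range. The difference was 0.06 (SE 0.07, limma adjusted p = 0.608), with a 95% interval of 0.942 to 1.15 in fold. With arrays scaled to a common median it was -0.12, and without Lewis rat 3 it was -0.01, neither of them called.

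Slc12a3, which encodes NCC, gave 10.50 in Lewis rat 1, 9.50 in Lewis rat 2 and 9.33 in Lewis rat 3. Dahl S rats gave 9.33, 9.50 and 9.31. One Lewis kidney stood a full 1.00 above every other kidney of either strain, and the other 2 Lewis kidneys lay inside or just above the Dahl S range. The difference was -0.40 (SE 0.22, limma adjusted p = 0.258) with all rats and -0.04 (adjusted p = 0.802) without Lewis rat 1. In deposited signal Lewis rat 1 gave 873.9, against 837.5 and 561.3 in the other Lewis rats and 726.3, 904.7 and 660.1 in Dahl S.

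The array of Lewis rat 1 was the dimmest, with a trimmed mean signal of 118 against 174 and 229 in Lewis rats 2 and 3 and 204 to 249 in Dahl S. On that array 139 of 15797 probe sets were at least 0.5 above every other array, and on each of the other 5 arrays 0 to 13 were. A gap as large as that of Slc12a3 was found in 6 probe sets on the array of Lewis rat 1 and in 0 on the others. The log2 ratio of 3' to 5' control probe sets was 0.25 for Gapdh on this array and 0.12 to 0.15 on the others. For beta-actin it was 1.33 on this array and 0.99 to 1.32 on the others. The part of these array properties in the Slc12a3 and Scnn1a values was not tested.

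**Figure D2:**
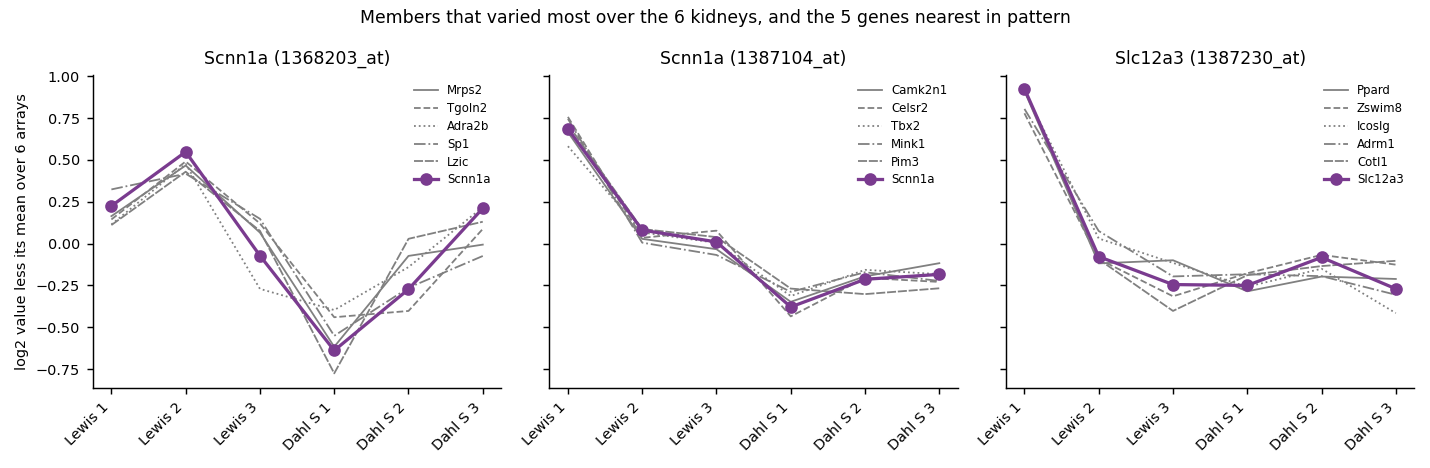
Normalised log2 values less their mean over the 6 arrays for the 3 member probe sets that spanned at least 0.8 (purple, points joined in order of array for reading only) and for the 5 named genes nearest to each in pattern (grey). For Slc12a3 and Scnn1a probe set 1387104_at the nearest genes, chosen for their likeness, share the high value of Lewis rat 1, which is 10.50 for Slc12a3 and 8.48 for Scnn1a.

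The genes nearest to each of the 3 widely varying member probe sets were found by the Euclidean distance between 6 centred values, over 6 kidneys. For Slc12a3 they were Ppard, Zswim8, Icoslg, Adrm1 and Cotl1, at distances of 0.20 to 0.24, where the median over all probe sets tested was 1.10. For Scnn1a on 1387104_at they were Camk2n1, Celsr2, Tbx2, Mink1 and Pim3, at 0.10 to 0.17 (median 0.90). For the other Scnn1a probe set they were Mrps2, Tgoln2, Adra2b, Sp1 and Lzic, at 0.34 to 0.41 (median 1.00). The genes nearest to Slc12a3 and to Scnn1a on 1387104_at had their highest value in Lewis rat 1, as the choice by distance to these profiles largely fixes. The lists of the 2 Scnn1a probe sets had no gene in common.

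Wnk1, whose gene yields a full-length kinase and a kidney-specific form without the kinase domain, had 5 probe sets. On 1372791_at Lewis rats gave 11.20, 11.07 and 11.10 and Dahl S rats 11.27, 11.24 and 11.26. All Dahl S values lay above all Lewis values, by a small 0.13 (SE 0.06, limma adjusted p = 0.169), or 1.10-fold. Without Lewis rat 1 this difference was 0.17 and was called (limma adjusted p = 0.045).

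On 1387072_at Lewis rats gave 9.50, 9.49 and 9.19 and Dahl S rats 9.71, 9.38 and 9.74. The groups overlapped through Dahl S rat 2, and the difference was 0.21 (SE 0.11, limma adjusted p = 0.234). The remaining 3 Wnk1 probe sets were below the filter level on all 6 arrays. Which form of Wnk1 each probe set measures is not given in the sources used here.

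Stk39, the kinase SPAK, gave 8.91, 8.83 and 8.94 in Lewis and 8.83, 8.81 and 8.58 in Dahl S on 1387059_at. Its difference was -0.15 (SE 0.09, limma adjusted p = 0.311), and the groups overlapped. The second probe set, 1370614_s_at, gave 7.73, 7.96 and 7.70 in Lewis and 7.64, 7.71 and 7.57 in Dahl S, also a difference of -0.15 (SE 0.11, limma adjusted p = 0.356). Both probe sets leaned the same way by the same amount, and neither was called.

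Oxsr1, the related kinase OSR1, gave 8.22, 7.96 and 8.05 in Lewis and 7.96, 8.14 and 8.13 in Dahl S. The 2 groups covered almost the same range. Its difference was 0.00 (SE 0.10, limma adjusted p = 0.997), with a 95% interval of 0.857 to 1.17 in fold.

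Nedd4l, the ligase NEDD4-2, gave 8.98, 8.92 and 8.99 in Lewis and 9.02, 8.99 and 8.81 in Dahl S. Dahl S rat 3 was the lowest and Dahl S rat 1 the highest of the 6. The difference was -0.02 (SE 0.09, limma adjusted p = 0.885), and the 95% interval of 0.863 to 1.12 in fold includes no difference.

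**Figure D3:**
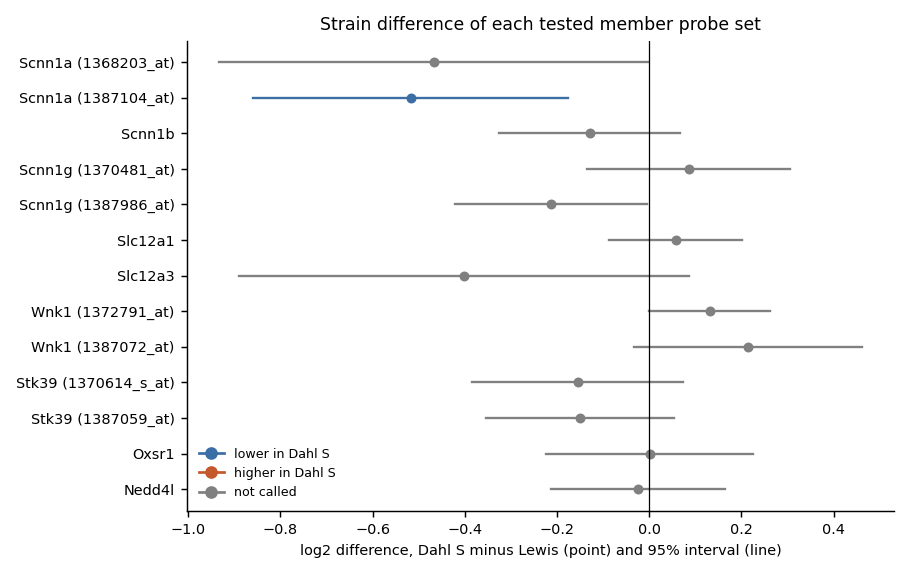
Strain difference (point) and 95% interval (line) of the 13 tested member probe sets, on the log2(signal + 16) scale; blue marks the 1 called. Among the 12 not called the differences run from -0.47 to 0.21, and their intervals reach from -0.93 (Scnn1a, 1368203_at) to 0.46 (Wnk1, 1387072_at).

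**Figure D4:**
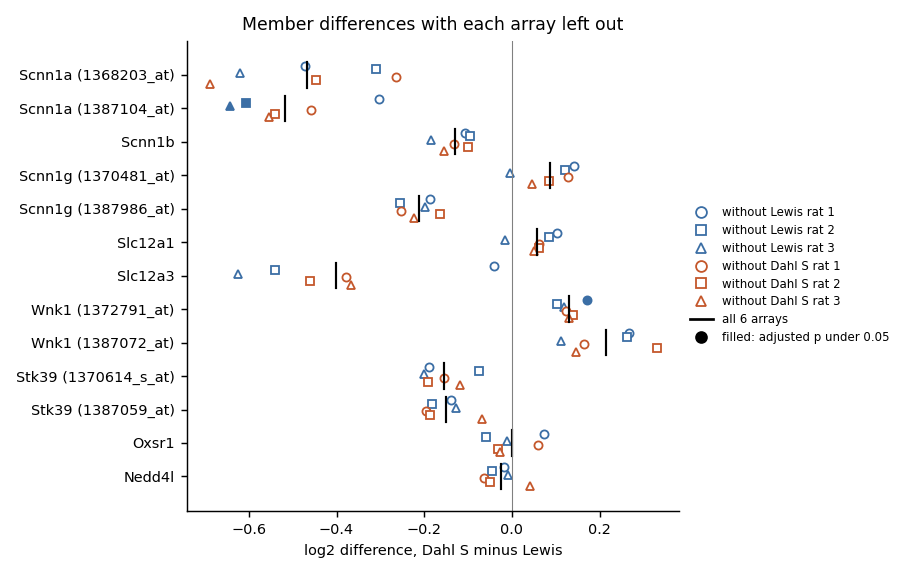
Member differences with each array left out in turn (open symbols, filled where limma's adjusted p is under 0.05) and with all 6 (black bar). Leaving out Lewis rat 1 moves Slc12a3 from -0.40 to -0.04 and Scnn1a (1387104_at) from -0.52 to -0.30.

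A list of genes that control ENaC and the cotransporters was examined beside the members. Of 22 regulators listed, 21 had a probe set of their own and 20 were tested: 7 were lower in Dahl S, 1 was higher and 12 were not called. Over all 9540 genes tested 7.62% were lower and 9.04% higher. The median difference of the regulators was -0.15, and the strain ranges did not overlap for 12 of the 20, against 34.4% of all probe sets. That share is over probe sets tested, and none was computed over genes. The regulators and the members were not tested against each other. Each gene is represented by its tested probe set of highest mean, and the lists were chosen with earlier results of these data known.

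Among genes that aldosterone or glucocorticoids induce, Sgk1, the kinase that inhibits NEDD4-2, gave 12.24, 12.39 and 12.25 in Lewis and 11.51, 11.61 and 11.65 in Dahl S. The strains were separated by a wide gap. Sgk1 fell by 0.70 (SE 0.06, limma adjusted p = 1.1e-05), or to 0.614-fold. Tsc22d3, whose protein GILZ promotes ENaC activity, gave 10.47, 10.60 and 10.45 in Lewis and 9.82, 9.83 and 9.83 in Dahl S. It fell by 0.68 (SE 0.07, limma adjusted p = 3.8e-05), and the 3 Dahl S rats were almost equal.

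Per1, a clock gene that takes part in Scnn1a transcription, gave 7.80, 7.78 and 7.77 in Lewis and 7.25, 6.96 and 6.72 in Dahl S. It fell by 0.81 (SE 0.13, limma adjusted p = 0.0012). Usp2, a deubiquitinase that acts on ENaC, gave 9.38, 9.13 and 8.83 in Lewis and 7.79, 7.97 and 7.72 in Dahl S. It fell by 1.28 (SE 0.13, limma adjusted p = 3.2e-05), or to 0.411-fold. The second Usp2 probe set, 1375549_at, gave -1.94, from 8.72, 8.04 and 8.02 in Lewis to 6.52, 5.96 and 6.48 in Dahl S. Its Dahl S values were close to the filter level, and Lewis rat 1 was highest. Sgk2, which encodes a kinase related to SGK1, fell by 0.49 (SE 0.09, limma adjusted p = 0.0036). Sgk1, Sgk2, Tsc22d3, Per1 and Usp2 were called without any 1 of the 6 arrays.

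The mineralocorticoid receptor gene Nr3c2 gave -0.10 (SE 0.11, limma adjusted p = 0.571), and Hsd11b2, whose enzyme protects that receptor from glucocorticoids, gave -0.19 (SE 0.07, adjusted p = 0.070). The third kinase of the family, Sgk3, gave 0.06 (SE 0.11, adjusted p = 0.785). Other regulators not called leaned up or lay near 0. Pdpk1 gave 0.27 (SE 0.09, limma adjusted p = 0.053), with no overlap between the strains, and 0.10 on its other probe set. Rictor gave 0.26 (SE 0.13, limma adjusted p = 0.210), Cab39l 0.02, Ywhab -0.02 and Ywhae -0.06.

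The 2 serine protease genes of the list, whose products cleave and activate ENaC, were both lower in Dahl S. Furin fell by 0.59 (SE 0.14, limma adjusted p = 0.011), from 9.58, 9.17 and 8.99 in Lewis to 8.53, 8.82 and 8.63 in Dahl S. Without Dahl S rat 1 the Furin difference was -0.52 (adjusted p = 0.057). Prss8, which encodes prostasin, gave 10.58, 10.69 and 10.45 in Lewis and 10.34, 10.26 and 10.32 in Dahl S, a fall by 0.27 (SE 0.08, limma adjusted p = 0.031). That call was lost without Lewis rat 2 (-0.21, adjusted p = 0.102), Dahl S rat 1 (-0.29, 0.075), Dahl S rat 2 (-0.24, 0.123) or Dahl S rat 3 (-0.27, 0.104).

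The regulator that was higher was Nedd4, a ligase related to NEDD4-2. Its brightest probe set rose by 0.28 (SE 0.05, limma adjusted p = 0.0036), while its other 4 tested probe sets gave -0.07 to 0.14. A dim Nedd4 probe set under the filter, 1384326_at, gave 0.82, with limma adjusted p = 0.045 when probe sets of all levels were tested. Its deposited signals were 10.2, 26.4 and 29.7 in Lewis and 64.4, 60.0 and 60.1 in Dahl S. With arrays scaled to a common trimmed mean or median the difference of the brightest probe set was 0.15 and 0.14 (limma adjusted p = 0.167 and 0.322). Without Lewis rat 3, 3 regulators were higher.

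On the WNK side of the list nothing was called. Klhl3 and Cul3, which form the ligase that removes WNK kinases, gave -0.30 (SE 0.13, limma adjusted p = 0.161) and 0.08 (SE 0.07, adjusted p = 0.467). Cab39, the SPAK and OSR1 cofactor MO25, gave -0.31 (SE 0.11, adjusted p = 0.067), and its other probe set 0.04. Ppp1r1a, an inhibitor of protein phosphatase 1, gave 0.01 (SE 0.07, adjusted p = 0.928). Wnk2 was under the filter.

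**Figure D5:**
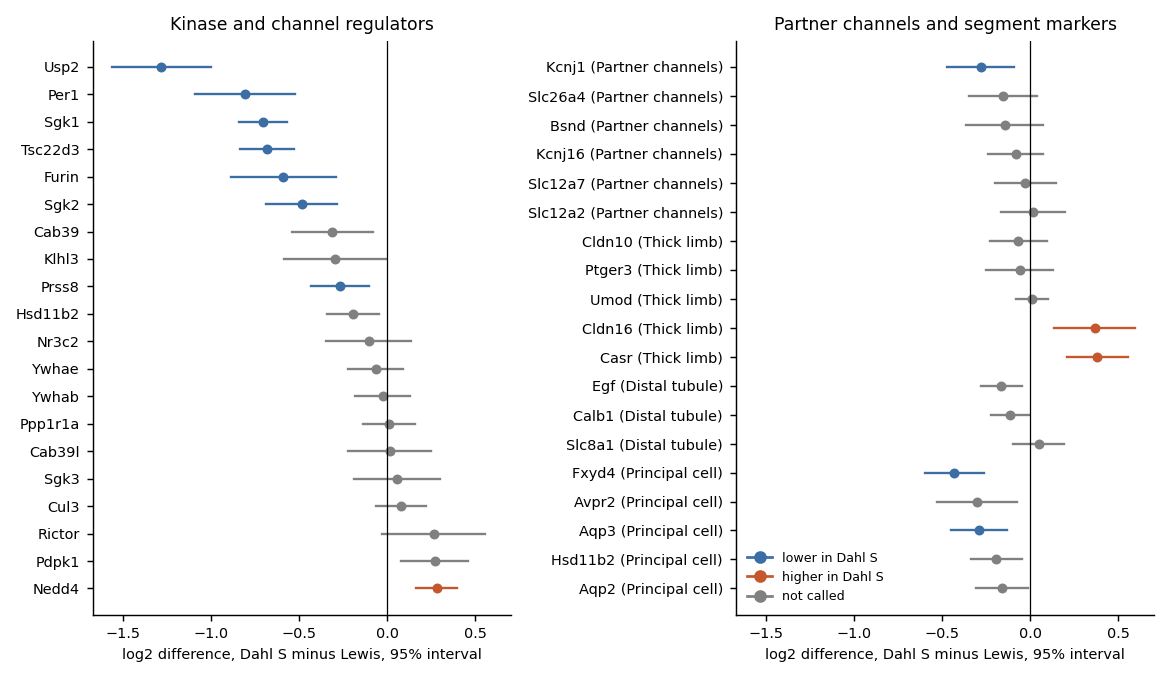
Strain difference and 95% interval of the 20 tested regulators (left) and of tested partner channels and segment markers (right), 1 probe set per gene. The regulators that fell run from Usp2 at -1.28 to Prss8 at -0.27, and the 5 principal cell markers lie between -0.43 and -0.16.

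Of 12 channels and cotransporters that work beside the members, 9 had a probe set and 6 were tested. Of these 1 was lower, 0 were higher and 5 were not called. Beside this list and each marker list below stands the share over all 9540 genes tested, 7.62% lower and 9.04% higher. Kcnj1, the ROMK potassium channel of the thick ascending limb and collecting duct, gave 10.96, 10.93 and 11.02 in Lewis and 10.64, 10.53 and 10.89 in Dahl S. It fell by 0.28 (SE 0.09, limma adjusted p = 0.044). The call was lost without Lewis rat 2 (-0.30, adjusted p = 0.078), Lewis rat 3 (-0.26, 0.10), Dahl S rat 1 (-0.26, 0.146) or Dahl S rat 2 (-0.20, 0.189). Slc12a2, the widely expressed relative NKCC1 of the cotransporters, gave 0.02 (SE 0.08, adjusted p = 0.911). With each gene as the mean of its tested probe sets 2 of these genes were lower.

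Markers of the segments that hold the members moved in different ways. Of the 5 thick ascending limb markers 2 were higher in Dahl S and 0 lower: the calcium-sensing receptor gene Casr rose by 0.38 (SE 0.08, limma adjusted p = 0.0063) and the tight junction gene Cldn16 by 0.37 (SE 0.11, adjusted p = 0.035). The uromodulin gene Umod gave 0.01, Cldn10 -0.07 and Ptger3 -0.06, but with arrays scaled to a common median Umod was lower at -0.32 (limma adjusted p = 0.041). The summed normalised signal of these markers was 13541 to 13798 in Lewis and 13665 to 13903 in Dahl S. Most of that sum is Umod, which lies among the brightest probe sets, where quantile normalisation holds values nearly equal between arrays. Casr was not called without Dahl S rat 3 (0.36, adjusted p = 0.050), and Cldn16 kept its call only when the array left out was Lewis rat 3. Without each of the other 5 arrays Cldn16 gave 0.29 to 0.41, so 0 of these markers were called without Dahl S rat 3, 2 without Lewis rat 3 and 1 without each other array.

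Of the 5 markers of the distal convoluted and connecting tubule, 4 had a probe set and 3 were tested, with 0 called in either direction. Calb1 gave -0.12 (SE 0.05, limma adjusted p = 0.143), Egf -0.16 (SE 0.05, adjusted p = 0.061) and Slc8a1 0.05 (SE 0.07, adjusted p = 0.678), and at an unadjusted p under 0.05 there were 2. In Lewis rats 1, 2 and 3 Calb1 gave 12.45, 12.41 and 12.50, Egf 12.54, 12.46 and 12.37, and Slc8a1 10.13, 10.24 and 10.22. Lewis rat 1, which was high for Slc12a3, was thus the highest Lewis rat for Egf, the middle one for Calb1 and the lowest for Slc8a1, and the part of this segment in the Slc12a3 value was not tested. Pvalb was at 4.11 to 4.28 on all arrays, near the lowest value the scale allows, and Trpm6 had no probe set of its own. With arrays scaled to a common trimmed mean or median 2 of these markers were called lower, Calb1 and Egf, and without Lewis rat 3 Egf was (-0.21, limma adjusted p = 0.025). The summed signal of the list was 12239 to 12625 in Lewis and 11237 to 11451 in Dahl S. Calb1 and Egf, among the brightest probe sets and not called, make up most of this sum.

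On the probe set that represents each gene, all 5 principal cell markers lay lower in every Dahl S rat than in any Lewis rat. This stands beside the 34.4% of probe sets whose ranges do not overlap, and 2 of the 5 markers were called. Fxyd4, a regulator of the sodium pump in the collecting duct, fell by 0.43 (SE 0.08, limma adjusted p = 0.0022), and Aqp3, the basolateral water channel, by 0.29 (SE 0.07, adjusted p = 0.017). Hsd11b2, given above, is on this list too. Aqp2, the vasopressin-regulated water channel, gave -0.16 (SE 0.07, adjusted p = 0.139) and the vasopressin receptor gene Avpr2 -0.30 (SE 0.10, adjusted p = 0.070). A dimmer Avpr2 probe set under the filter, 1371265_at, gave -0.19, and there the strains overlapped. The summed signal of the 5 markers was 8827 to 9438 in Lewis and 7677 to 7978 in Dahl S. Aqp2 and Hsd11b2, the brightest of the list and not called, make up most of this sum. The differences of the 5 markers and of Scnn1a were all below 0. Of the other ENaC subunits Scnn1b gave -0.13 and Scnn1g 0.09 and -0.21 on its 2 probe sets, none of them called. The part of these cells in the ENaC subunit values was not tested. The number of markers called was 4 without Lewis rat 1 and with either other scaling of arrays, and 1 without Dahl S rat 1 or Dahl S rat 3. Without normalisation all 5 differences were above 0, and relative to the 0.41 shift they were -0.40 to -0.26.

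Markers of other kidney cells changed beside the members. Of 5 intercalated cell markers 1 rose, Atp6v1g3 by 0.43, and of 5 proximal tubule markers 1 fell, Slc22a6 by 0.69, or 3 with either other scaling of arrays. Of 3 podocyte markers tested Podxl fell by 0.79, and of 3 endothelial markers Pecam1 and Emcn fell by 0.40 and 0.36. The proximal tubule marker Slc34a1 and the podocyte marker Synpo, not called on their brightest probe sets, were called lower on another, given under other observations. With each gene as the mean of its tested probe sets 2 podocyte and 2 proximal tubule markers were lower. The 3 leukocyte markers tested all rose: Ptprc by 0.97, Cd68 by 0.61 and Cd53 by 0.46, with a summed signal of the list of 418 to 495 in Lewis and 724 to 738 in Dahl S. Pecam1 was not called without Lewis rat 1 or any Dahl S rat (limma adjusted p 0.056 to 0.111), and Cd53 was not called without Dahl S rat 1 (0.39, limma adjusted p = 0.076). The part of these cells in the members' values was not tested.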

How the data were processed

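Kidney RNA of 6 rats was measured on 1 array each. The deposited values are linear signal intensities, which the authors computed with GeneChip Operating Software version 1.4, per the labels' design text. The scaling target is not given in the sources used here. Leaving out 57 control probe sets, log2(signal + 16) was quantile-normalised and fitted with limma 3.58.1 in R 4.3.3 (two-sided; lmFit with strain as the only term, then trended eBayes). Intervals are 95%. No 2 arrays held identical values. Symbols came from the platform annotation, and list genes were updated by gene identifier to RefSeq GRCr8: 20758 of 21262 annotated probe sets matched, 20826 had 1 symbol, 436 several and 9780 none.

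The members and lists were chosen with earlier results of these data known. Named were all member probe sets, list genes past the threshold, segment markers, and the 5 genes nearest in pattern to a member that spanned at least 0.8; other list genes were named after their values were seen. The fit was tested on simulated data. Alternatives were other scalings, pseudocounts of 0 and 64, other filters, no variance trend, a replicate block and each array left out, with the normalised values and the tested probe sets kept.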

Additional observations from a re-analysis of the deposited data

How the results depend on the processing

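Of 194 recomputed differences of the 13 member probe sets, 185 kept their side of the threshold, and 0 were called in the opposite direction. As 12 of the 13 were not called to begin with, most of the 185 stayed uncalled. An uncalled difference that changed sign was counted as kept. Scnn1a (1387104_at) lost its call 8 times and Wnk1 (1372791_at) gained one once. Scnn1a stayed called with arrays scaled to a common median, with either other pseudocount, with the stricter filter and with the replicate block (5 of 9 settings other than left-out arrays).

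The number of member probe sets called lower, 1, was 0 in the deposited intensities without normalisation, with arrays scaled to a common trimmed mean, without a filter on low values and without a variance trend, and 0 to 1 with 1 array left out; the number called higher was 0 to 1. The deposited intensities gave 666 probe sets higher and 47 lower over the whole array, and 0 regulators higher or lower, and of the list genes named as called Ptprc and Cd68 alone were called there. With 1 array left out the counts over all probe sets were 763 to 1449 higher and 725 to 1338 lower, and those of the regulators 1 to 3 higher and 5 to 8 lower. The number of regulators higher was 0 with either other scaling of arrays and with a gene as the mean of its probe sets. The deposited intensities turned Prss8 to 0.12, Kcnj1 to 0.085, Aqp3 to 0.099, Fxyd4 to 0.0019, Pecam1 to 0.022 and Emcn to 0.045. The median difference of all probe sets tested was 0.41 there. Scaling to a common median turned Umod to -0.32 (limma adjusted p = 0.041). The cause of these changes was not tested.

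The titles number the rats of each strain 1 to 3, and nothing says that a number pairs rats. Deviations from the strain means of same-numbered rats correlated at -0.05, -0.10 and 0.11 over probe sets, so the numbers were not taken as pairs. With the replicate block 1295 probe sets were higher and 1199 lower, and 2 regulators were higher. Signal over background is not stated, and the dim Scnn1a and Wnk1 probe sets are the least certain.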

Other observations

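Below the filter level, the Wnk1 probe set 1368140_at gave normalised values of 5.75, 5.94 and 5.83 in Lewis and 5.41, 4.84 and 4.19 in Dahl S. Its deposited signals were 24.7, 50.9 and 36.2 in Lewis and 29.2, 16.7 and 1.9 in Dahl S, so the strains overlapped before normalisation and not after it. The difference was -1.03 and was not called when probe sets of all levels were tested (limma adjusted p = 0.066); at signals this low its size is uncertain. The other dim Wnk1 probe sets gave -0.30 (1375300_at) and 0.01 (1396919_at), with deposited signals of 1.2 to 15.0 and 9.4 to 26.7.

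For some list genes another tested probe set, singled out after its values were seen, differed from the brightest one, and the difference between probe sets was not tested. Among the partner channels Kcnj16, a potassium channel of the basolateral distal nephron, gave -0.08 (limma adjusted p = 0.481) on its bright probe set and -0.49 on 1370076_at (adjusted p = 0.0038). Slc12a7, a potassium-chloride cotransporter, gave -0.03 on its bright probe set and -0.38 on 1391796_at (limma adjusted p = 0.098). Among the distal tubule markers Slc8a1, the sodium-calcium exchanger of the connecting tubule, gave 0.05 and, on 1370588_a_at, -0.38 (limma adjusted p = 0.117). Slc34a1, a proximal tubule marker, gave -0.06 on its bright probe set and -0.62 on 1370610_at (limma adjusted p = 0.0022). Synpo, a podocyte marker, gave -0.04 on its bright probe set and -0.87 on the dimmer 1387501_at (limma adjusted p = 0.0028). On 1394907_at Synpo gave -0.32 (limma adjusted p = 0.292).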
